A study of Mus musculus with 18 samples.

Results

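Kinesins, dyneins and myosins are the motor proteins of the cell. Kinesins and dyneins walk along microtubules, most kinesins toward the growing plus end and dyneins toward the minus end, whereas myosins pull on actin filaments. Between them they carry vesicles and organelles along axons, build and divide the mitotic spindle, run traffic in and out of the cilium and contract the cell cortex and muscle. Ribosome profiling was used here to ask how densely ribosomes covered the mRNAs of these genes in embryonic tissues.

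The motor genes were the 34 genes, of 12241 in the deposited tables, that have one of the symbols of these families in the 2 gene lists of the study used to name the tables' UCSC identifiers. They comprised 18 kinesins, 2 dynein heavy chains and 14 myosins. No symbol beginning Klc, Dynl or Dctn was among those used, so light chains and dynactin were not analysed here. One list ranks genes by translational efficiency in the mesoderm and the other by its change between 2 tissues, and each was read as shortened to its first 2000 rows. The 34 genes are therefore motor genes near a threshold or beyond it, and not whole families. The 22 taken from the mesoderm list had to lie low or high there. For those 22 genes the mesoderm values are given as a description, and tests are given in the other tissues, which their selection did not use. The reverse holds for the 12 genes taken only from the tissue list. TE may be shared between tissues, so shares of all genes set beside these tests are not matched to how the genes were chosen.

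RNA-Seq and Ribo-Seq were performed at E11.5 on 3 replicates each of mesoderm, neural tube (NT) and forelimb buds (FL), 18 libraries in all. Mesoderm consisted of the GFP+ cells sorted from R26-mTmGflox/+; Tg(T-cre)1LWD/J/+ embryos, where the T promoter drives Cre, so that the marked cells are descendants of the primitive streak and mix somitic, lateral plate and intermediate mesoderm. NT and FL were microdissected from the same embryos of FVB mothers and hold every cell type of those tissues, and some neural tubes were frozen while others were dissociated first. All embryos and cells were handled in cycloheximide, which stalls ribosomes on the mRNA. Ribo-Seq reads the stretches of mRNA shielded by a ribosome, called ribosome-protected fragments (RPFs), and translational efficiency (TE) is the level of RPFs over that of mRNA. Here log2 TE is centred on the median of all genes of the tissue, so 0 is the typical gene and -1 is 2-fold fewer RPFs for the same mRNA. Both are counted along the coding sequence, so TE follows the density of ribosomes there, not their number on an mRNA.

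Most of the motor genes had fewer RPFs for their mRNA reads than the typical gene. So did, at the median, those genes with a symbol that have a long coding sequence. *Dync1h1*, the heavy chain that carries the motor of cytoplasmic dynein, had a log2 TE of -2.86 in mesoderm, -1.09 in NT and -2.72 in FL. *Kifc2*, a minus-end-directed kinesin of neurons, had the lowest log2 TE of the set in each tissue, at -3.74, -2.52 and -4.06. Of the 19 mesoderm-list genes measured in FL and NT, 16 were called TE-low in FL (84.2%), against 13.4% of all 11231 genes, and 3 in NT (15.8%), against 4.13%. Calls required an adjusted p under 0.05 (limma, Benjamini-Hochberg over all genes) and at least 3-fold from the median. Each of the 19 was chosen for an extreme TE in mesoderm, so the shares of all genes are not a matched comparison. The share among all genes of the mesoderm list is not given.

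The sequence around the start codon is shown for 6 genes on which the results turn. *Kifc2*, *Myo19* and *Myo9b* were TE-low in both NT and FL, *Kif5a* had the largest differences in mRNA and RPFs between the tissues, *Dync1h1* is the dynein motor, and *Kif20b* shares with *Kifc2* a start unlike that of the rest. Each line holds 9 bases before the ATG of the coding sequence, the ATG in capitals and the base after it, read from the GENCODE transcript on GRCm38, the same assembly as mm10.
Dync1h1: ggatccgccATGt
Kifc2: cgcgcccccATGt
Kif20b: cgattgcagATGg
Kif5a: tcgaccaccATGg
Myo19: tgaagcacgATGc
Myo9b: gccggcagtATGa
These start codons lay at chr12:110601605-110601607 on the plus strand for *Dync1h1*, chr15:76660667-76660669 on the plus strand for *Kifc2*, chr19:34924626-34924628 on the plus strand for *Kif20b*, chr10:127262894-127262896 on the minus strand for *Kif5a*, chr11:84882716-84882718 on the plus strand for *Myo19* and chr8:71290297-71290299 on the plus strand for *Myo9b*. A purine 3 bases before the ATG, the best known feature of a favourable start context, was present in 31 of the 33 motor genes examined (93.9%) and in 83.9% of 20164 coding genes. *Kifc2* and *Kif20b* were the 2 without it. A G directly after the ATG was present in 19 of 33 genes (57.6%), against 49.3% of coding genes, and both features in 18 (54.5%), against 41.0%.

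The motor genes share long coding sequences (CDS). *Dync1h1* spans chr12:110601452-110666945 on the plus strand, with 77 exons in the transcript used and a CDS of 13932 nt. The CDS of the 34 genes ran from 2376 nt in *Kifc2* to 13932 nt, with a median of 5134.5 nt, and all 34 exceeded the median of all coding genes, 1188 nt. Their annotated 5′ untranslated regions had a median of 172.5 nt, against 153.0 nt for all coding genes. The number of annotated AUGs upstream of the start codon had a median of 0.5 a gene, against 1.0 for all coding genes. The study set TE-low transcripts against all those it analysed, and found longer 5′ untranslated regions and more upstream AUGs. By 5′ RACE it found longer ones than annotated for *Ptch1*, *Gli1*, *Wwc1* and *Sav1*. The annotated values here are therefore not a test of that result.

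TE fell with CDS length in every Ribo-Seq library, to a degree that differed between replicates of NT and of FL. Over the 3002 genes of the NT and FL table with a symbol and a CDS, Spearman's correlation of log2 TE with CDS length was -0.18 and -0.19 in NT Ribo-Seq replicates 1 and 2 but -0.53 in replicate 3. In FL it was -0.75 in replicates 1 and 2 but -0.48 in replicate 3. In mesoderm, over 3117 genes, it was -0.49, -0.62 and -0.53. These are correlations across genes, most of which were named because of their TE, and they share the library, so they describe the libraries. The median log2 TE of the motor genes was -0.46, -0.43 and -1.33 in NT replicates 1, 2 and 3, -2.33, -2.33 and -1.01 in FL and -1.46, -1.87 and -1.36 in mesoderm. Genes with a symbol and a CDS at least as long as the motor genes' median, motor genes among them, had medians of -0.42, -0.39 and -1.63 in NT, -2.99, -2.90 and -1.05 in FL and -1.64, -2.32 and -1.65 in mesoderm. The part of CDS length in the TE of the motor genes was not tested.

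**Figure D1:**
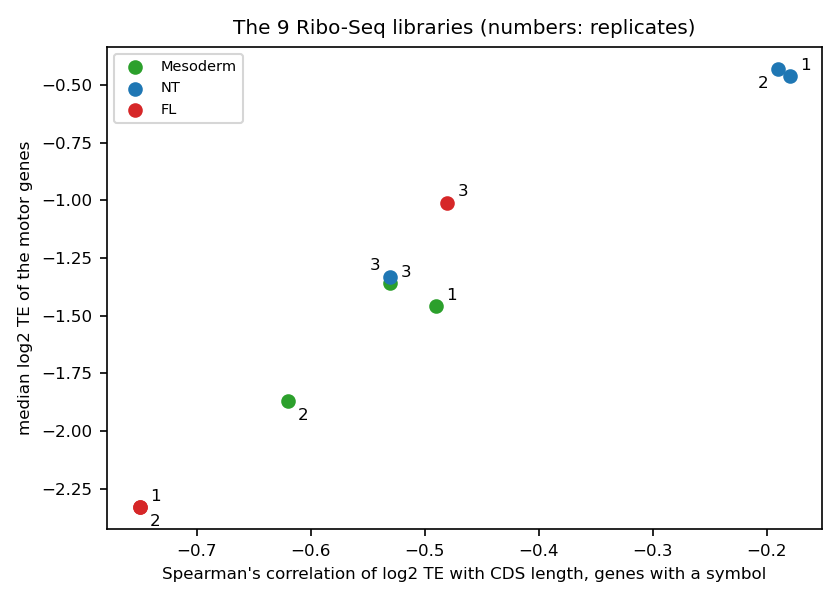
Each point is 1 of the 9 Ribo-Seq libraries, numbered by replicate and coloured by tissue. The x axis is Spearman's correlation of log2 TE with CDS length over genes with a symbol and the y axis the median log2 TE of the motor genes, both without units. NT replicates 1 and 2 lie at the upper right (correlations of -0.18 and -0.19), FL replicates 1 and 2 share a point at the lower left (correlation of -0.75), and replicate 3 of both tissues lies between them.

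Replicate 3 also stood apart from its own group in Ribo-Seq. Pearson's r on log2(normalized reads + 1) was 0.989 between NT replicates 1 and 2 but 0.933 and 0.934 with replicate 3, and 0.976 between FL replicates 1 and 2 but 0.886 and 0.896 with replicate 3. FL Ribo-Seq replicate 3 was also closer to the FL mRNA (mean r = 0.905) than replicates 1 and 2 were (0.729 and 0.737). Ribo-Seq libraries held 11000015 to 31993255 reads on the genes of the tables and RNA-Seq libraries 24555103 to 50136443. Of 13 neural markers in a fixed list, the 3 with a symbol were *Nes*, *Dcx* and *Fabp7*. They summed to 20489 to 34354 normalized RNA reads in NT and 4725 to 5591 in FL. Of 12 limb mesenchyme markers, the 3 with a symbol were *Msx1*, *Hoxd11* and *Hoxd13*. They summed to 13223 to 17102 in FL and 1026 to 1489 in NT. The sums of these few markers were thus higher in the tissue of their label, and the other listed markers were not examined. In mesoderm these lists summed to 6585 to 8774 and 5312 to 8300. The blood gene *Hba-x* had 2250 to 12367 normalized RNA reads in mesoderm, 10789 to 18979 in NT and 13021 to 23440 in FL. The muscle gene *Myf5* was in the mesoderm table alone, with 140 to 215. *Epcam*, the surface ectoderm gene with a symbol, had 108 to 132 normalized RNA reads in mesoderm, 537 to 690 in FL and 96 to 659 in NT, and no endothelial marker had a symbol.

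In mesoderm, each of the 33 motor genes in the table lay below the median in log2 TE, as 50% of all genes do, with a median of -1.51. This is a description for the 22 genes chosen by it, of which 16 passed the TE-low thresholds that 10.9% of all 12064 genes passed and none the TE-high thresholds that 1.17% passed. Just inside the 3-fold line lay *Kif5a* at -1.63, *Myo5a* at -1.68 and *Kif21b* at -1.69, and just outside it *Dnah1* at -1.51 and *Kif20b* at -1.45. The 11 genes of the tissue list were tested. At an adjusted p under 0.05 by limma, without the fold threshold, 10 of the 11 (90.9%) were below the median, against 34.2% of all genes, with values from -1.33 for *Kif14* to -0.46 for *Kif18a*. *Kif4* was not called (log2 TE -0.48 ± 0.22 SE, adjusted p = 0.0743). That none of the 11 was 3-fold below the median follows from the split, since such a gene would have been in the mesoderm list.

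**Figure D2:**
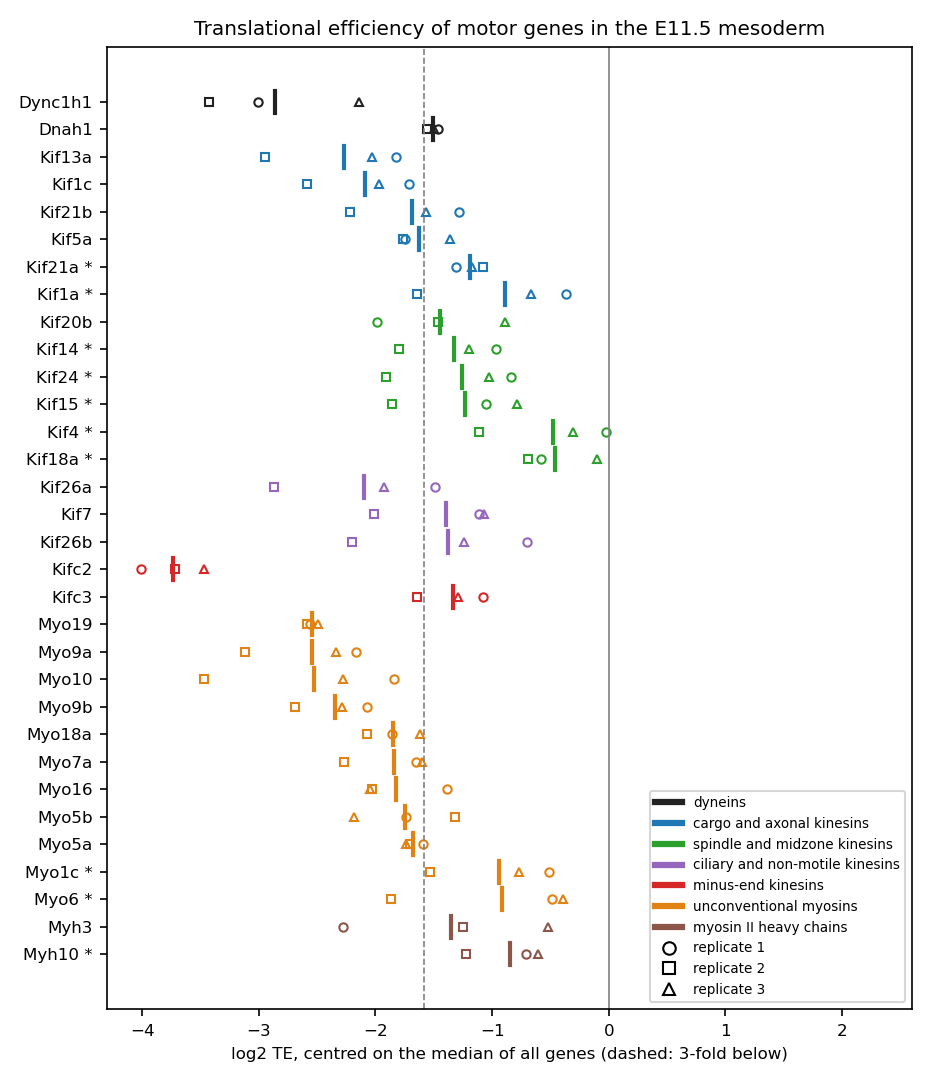
Log2 TE of motor genes in mesoderm (x axis, centred on the median of all genes), 1 row a gene, coloured by role. Symbols are the 3 replicates and the vertical bar is their mean; the dashed line marks 3-fold below the median and an asterisk marks the genes that the mesoderm values did not choose. All means drawn lie left of 0, and *Kifc2* lies lowest, with a mean over replicates of -3.73.

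Of the 2 dyneins, *Dync1h1* lay lower in mesoderm. It had 27850, 38179 and 28817 normalized RNA reads and 3582, 3566 and 6691 normalized RPFs in replicates 1, 2 and 3. Its log2 TE was thus -3.01, -3.43 and -2.14, and replicate 3 was the highest. *Dnah1*, a heavy chain of the axonemal dynein that bends motile cilia and flagella, varied little, at -1.46, -1.56 and -1.50.

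Among the cargo and axonal kinesins, log2 TE in mesoderm ran from -2.27 ± 0.23 (SE) for *Kif13a*, which moves endosomal cargo, and -2.09 ± 0.20 for *Kif1c* to -0.90 ± 0.24 for *Kif1a*, the carrier of synaptic vesicle precursors. *Kif13a* had 2121, 2454 and 2248 normalized RNA reads and 623, 317 and 565 RPFs. *Kif1a* had 482, 899 and 853 normalized RNA reads and 387, 288 and 549 RPFs. In *Kif1a* replicate 1 had the lowest mRNA but not the fewest RPFs, and its log2 TE ran from -1.64 to -0.37. *Kif1a* (adjusted p = 0.00666, limma) and *Kif21a* (-1.19 ± 0.17, adjusted p = 1.5e-04), a kinesin that restrains microtubule growth, were both below the median.

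Among the spindle and midzone kinesins, *Kif18a*, which aligns chromosomes at metaphase, lay at -0.46 ± 0.19 (adjusted p = 0.0498) and *Kif4*, which organizes the spindle midzone, at -0.48, whereas *Kif14* (adjusted p = 2.1e-04), *Kif15* (-1.24, adjusted p = 5.7e-04) and *Kif24* (-1.26, adjusted p = 5.9e-04), a centriolar kinesin, lay lower in the limma test. The mRNA of 2 of these genes varied widely between the mesoderm replicates. *Kif20b*, a kinesin of cytokinesis, had 4393, 444 and 1072 normalized RNA reads and 1151, 162 and 592 RPFs. *Kif18a* had 1377, 194 and 423 RNA reads and 956, 120 and 404 RPFs. RPFs and mRNA of each were highest in replicate 1 and lowest in replicate 2, so that both measures moved together across the libraries.

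The ciliary and non-motile kinesins ranged from -2.10 ± 0.25 for *Kif26a* to -1.38 ± 0.26 for *Kif26b*, a pair of kinesins that bind microtubules without walking, with *Kif7*, the kinesin of the Shh pathway at the tip of the cilium, at -1.40 ± 0.21. *Kif26a* had 1967, 3632 and 3749 normalized RNA reads and 728, 498 and 1009 RPFs. *Kif26b* had 5713, 9054 and 8802 RNA reads and 3661, 1981 and 3814 RPFs. In each of these genes replicate 2 had the fewest RPFs while its mRNA was not the lowest.

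Both minus-end kinesins were low, *Kifc3* by much less than *Kifc2*. *Kifc2* had 268, 231 and 327 normalized RNA reads and 16.4, 16.6 and 29.4 normalized RPFs, which are 11, 8 and 13 reads, so its TE rests on few reads. *Kifc3* lay at -1.34 ± 0.19. Their CDS are of like length, 2376 and 2472 nt, the shortest of the 34 genes.

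The unconventional myosins fell into a low and a middle range in mesoderm. *Myo19*, the myosin of mitochondria, *Myo9a*, a class IX myosin, and *Myo10*, which extends filopodia, lay at -2.55 ± 0.17, -2.54 ± 0.21 and -2.53 ± 0.27. *Myo19* had 1560, 1237 and 1215 normalized RNA reads and 274, 205 and 221 RPFs, and a log2 TE between -2.59 and -2.49 in every replicate. *Myo9b*, its relative, lay at -2.35, and *Myo18a*, *Myo7a*, *Myo16*, *Myo5b* and *Myo5a* at -1.85, -1.85, -1.82, -1.75 and -1.68. *Myo1c* (-0.94, adjusted p = 0.00281) and *Myo6* (-0.92, adjusted p = 0.0138), the myosin that walks toward the minus end of actin, were below the median by limma. Of the myosin II heavy chains, *Myh10*, the non-muscle chain, lay at -0.85 ± 0.20 (adjusted p = 0.00309, limma), and *Myh3*, the chain of embryonic skeletal muscle, at -1.35. *Myh3* ranged from -2.28 in replicate 1 to -0.52 in replicate 3.

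In NT, *Kifc2*, *Myo19* and *Myo9b* were the motor genes called low. The 19 mesoderm-list genes had a median log2 TE of -1.0 there and all 19 were negative, against 50% of all genes, from *Kifc2* at -2.52 to *Myo5a*, the organelle carrier of neurons and melanocytes, at -0.38. Of these, *Kifc2* (adjusted p = 0.00797), *Myo19* (-2.31, adjusted p = 5.6e-04) and *Myo9b* (-1.65, adjusted p = 0.00817) passed both TE-low thresholds by limma, and none was TE-high, against 0.436% of all genes. *Kif1c* (-1.42, adjusted p = 0.00163), *Kif13a* (-1.24, adjusted p = 0.0113), *Myo18a* (-1.01, adjusted p = 0.0405) and *Kif21b* (-0.76, adjusted p = 0.0414) passed the adjusted p but not the fold threshold, which made 7 of 19 (36.8%) by adjusted p alone, against 15.1% of all genes. The values that passed neither were *Myo9a* at -1.36, *Dync1h1* at -1.09 (adjusted p = 0.105, limma), *Myo5b* at -1.03, *Dnah1* and *Myo10* at -1.0, *Kifc3* at -0.74, *Kif26a* at -0.72, *Kif20b* at -0.68 and *Kif7* at -0.48. Without NT replicate 3, *Myo9b* was no longer called (log2 TE -1.29) and *Kif5a*, *Kif26b* and *Myo5a* turned from -0.44, -0.43 and -0.38 to 0.13, 0.02 and 0.35. Without NT replicate 1, *Kifc2* was no longer called (adjusted p = 0.0681, limma).

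The NT genes called TE-low differed in how far their replicates spread. *Myo19* had 1208, 1005 and 1089 normalized RNA reads and 202, 255 and 222 RPFs in NT, all 3 replicates alike. *Myo9b* had 5451, 5094 and 6464 RNA reads and 2149, 2231 and 1276 RPFs, with replicate 3 the lowest. *Kifc2* had 591, 296 and 913 RNA reads and 83.8, 57.7 and 181 RPFs, with replicate 3 the highest in both.

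In FL, 8 of the 10 mesoderm-list kinesins, 6 of the 7 myosins and both dyneins were TE-low, with a median of -2.24 over the 19 genes. By adjusted p alone all 19 were below the median, against 29.5% of all genes, while 50% of all genes are negative and 6.25% were TE-high. The 3 that were not called, *Kif7* (-1.45), *Myo5b* (-1.18) and *Kifc3* (-1.07), were below the median at adjusted p of 0.00481, 0.0159 and 0.00543 by limma but within 3-fold of it. Below -2.5 lay *Kifc2*, *Myo9a* (-3.58, adjusted p = 7.2e-04), *Myo10* (-2.79, adjusted p = 9.1e-04), *Myo19* (-2.78, adjusted p = 9.0e-05), *Dync1h1* (adjusted p = 6.1e-04), *Kif20b* (-2.69, adjusted p = 0.00182) and *Myo9b* (-2.64, adjusted p = 2.4e-04). *Myo5a* lay at -2.4, *Kif13a* at -2.39, *Kif5a* at -2.24, *Myo18a* at -2.1, *Kif26a* at -2.08, *Kif1c* at -1.98, *Dnah1* at -1.94, *Kif21b* at -1.63 and *Kif26b* at -1.61. Of the 16 calls, 13 held with any 1 replicate left out. *Dnah1*, *Kif21b* and *Kif26b* lost theirs without FL replicate 2, *Kif21b* and *Kif26b* also without FL replicate 1 and by edgeR, and *Kif26b* also by DESeq2.

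The reads behind the FL values differed mainly in the RPFs of replicate 3. *Myo19* had 1142, 1269 and 1208 normalized RNA reads and 197, 91.7 and 299 RPFs. *Myo9b* had 7143, 6676 and 5882 RNA reads and 667, 769 and 2277 RPFs. *Kif26a* had 4327, 4936 and 4824 RNA reads and 632, 761 and 2846 RPFs. In each of these genes FL replicate 3 had the most RPFs, while its mRNA was not the highest. *Dnah1* had 191, 136 and 439 RPFs in FL and 244, 270 and 120 in NT. *Kif20b* had 1906, 1787 and 2574 RNA reads in FL and 1062, 1599 and 1147 in NT. Thus the mRNA of *Kif20b* did not overlap between the tissues, with FL the higher. The change of 0.72 was not called (adjusted p = 0.452, limma). With RNA-Seq fitted without Ribo-Seq its adjusted p was 0.017 (limma), but the change stayed below the fold threshold. *Kif7* had 1518, 1771 and 1464 RNA reads and 330, 475 and 1226 RPFs in FL, beside 1133, 888 and 1122 RNA reads and 775, 873 and 648 RPFs in NT.

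**Figure D3:**
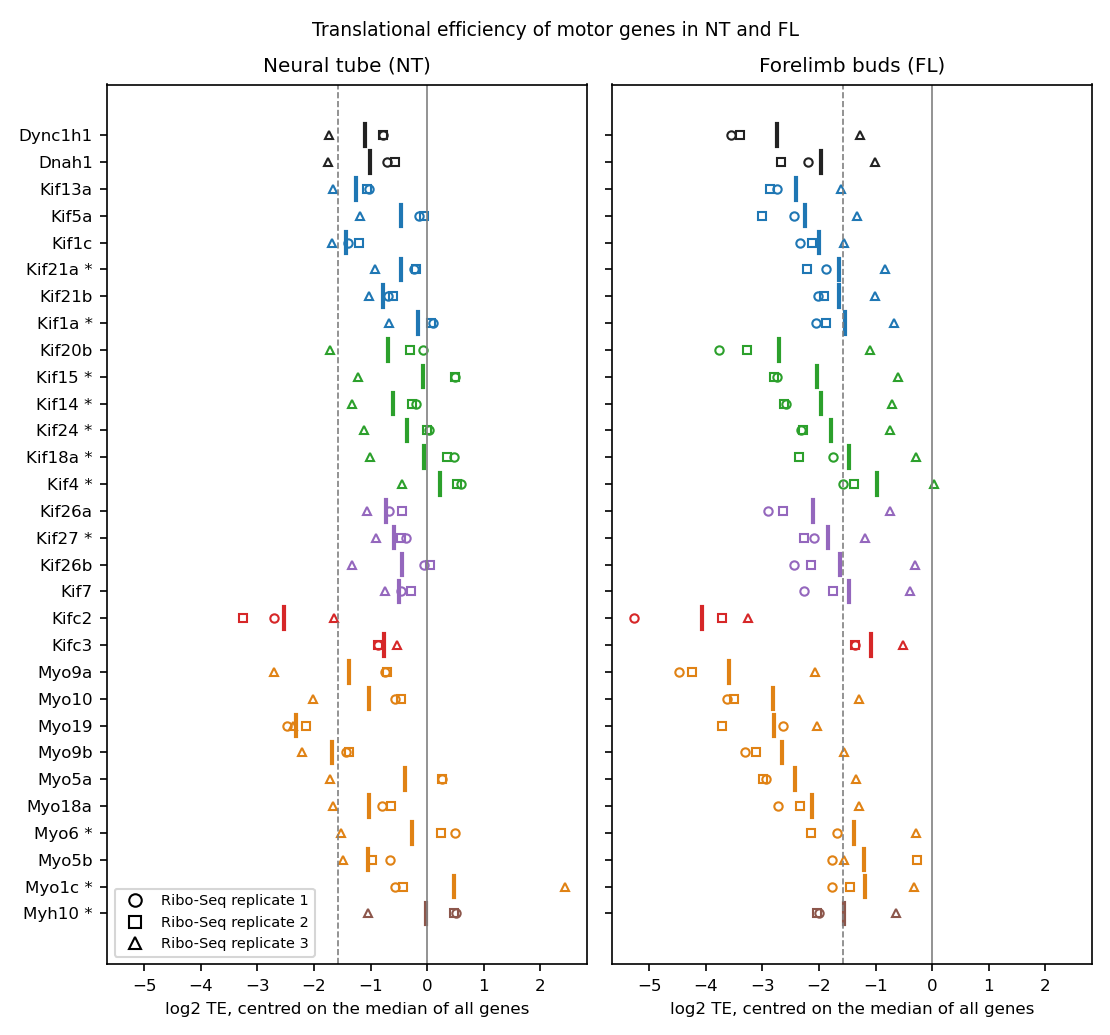
Log2 TE of motor genes in NT (left) and FL (right), on the x axis and centred on the median of all genes, 1 row a gene. Symbols are the Ribo-Seq replicates, each set against the mean mRNA of its tissue, the vertical bar is their mean, the dashed line marks 3-fold below the median, and an asterisk marks the genes chosen by these tissues. In NT replicate 3 (triangle) is lowest in most rows and in FL it is highest in most rows, while *Kifc2* and *Myo19* are low in both tissues.

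For the 12 genes of the tissue list, the NT and FL values are a description, because they chose the genes. Their log2 TE lay between -0.58 (*Kif14*) and 0.50 (*Myo1c*) in NT and between -2.03 (*Kif15*) and -0.96 (*Kif4*) in FL. *Myo1c*, a myosin that links membranes to actin, owed its NT value to 1 library, with 508, 559 and 4162 normalized RPFs and 1285, 607 and 501 normalized RNA reads. *Kif1a*, *Kif15*, *Kif18a*, *Myh10* and *Kif4* lay at -0.15, -0.07, -0.05, -0.01 and 0.24 in NT and at -1.52, -2.03, -1.44, -1.54 and -0.96 in FL. *Kif21a*, *Kif24* and *Myo6* lay at -0.44, -0.35 and -0.25 in NT and at -1.63, -1.77 and -1.36 in FL. *Kif14* and *Myo1c* lay at -1.95 and -1.16 in FL. *Kif4* had 2079, 1998 and 1028 RPFs in NT and 678, 767 and 2087 in FL, beside 929, 1816 and 1450 RNA reads in NT and 2035, 2063 and 1878 in FL. *Kif27*, a relative of *Kif7* absent from the mesoderm table, lay at -0.57 in NT and -1.83 in FL.

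The mRNA of *Kif5a* and *Kif21b* was lower in FL than in NT. *Kif5a*, the neuronal heavy chain of conventional kinesin, had 3277, 4998 and 6358 normalized RNA reads in NT and 543, 388 and 331 in FL. No FL library reached the lowest NT library, and the mRNA was 11.4-fold lower in FL (log2 change -3.51 ± 0.42 SE, adjusted p = 2.8e-05, limma). *Kif21b* had 11927, 10472 and 12447 RNA reads in NT and 3778, 3298 and 3009 in FL (-1.79 ± 0.25, adjusted p = 1.3e-04, limma). *Kif1a* and *Kif21a*, chosen from these tissues and so not tested, had changes of -3.27 and -2.64. *Kif1a* had 8717, 9142 and 9065 RNA reads in NT and 967, 926 and 897 in FL.

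*Kif1c* and *Kif26b* had more mRNA in FL. *Kif26b* had 2447, 2507 and 2569 normalized RNA reads in NT and 9593, 9336 and 8438 in FL, 3.63-fold higher (log2 change 1.86 ± 0.47, adjusted p = 0.01, limma). *Kif1c* had 2043, 1619 and 1300 RNA reads in NT and 3700, 3873 and 3342 in FL (1.16 ± 0.24, adjusted p = 0.00314, limma), and without NT replicate 3 its change of 1.00 lay at the 2-fold threshold and was not called. In neither gene did the tissues overlap. In such dissected tissue, fewer cells of a type and less RNA per cell cannot be told apart.

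Counted over the 19 mesoderm-list genes, mRNA was lower in FL for 2 (10.5%), against 9.49% of all genes, and higher for 2 (10.5%), against 7.82%, both near the share of all genes. The median change was 0.13, against 0.02 for all genes. *Dnah1* had 326, 337 and 546 RNA reads in NT and 1025, 893 and 714 in FL, a change of 1.15 that was not called in the joint fit (adjusted p = 0.0682, limma) but was when RNA-Seq was fitted without Ribo-Seq (adjusted p = 0.0039, limma). In the joint fit the spread of a gene is shared with its Ribo-Seq libraries. In the same fit of RNA-Seq alone, the mRNA of *Dync1h1* was lower in FL at an adjusted p of 0.0154 (limma). It was lower by 0.52 on the log2 scale, which is under 2-fold. *Myo18a* (-0.98, adjusted p = 1.8e-04) and *Myo5b* (-0.70, adjusted p = 0.039) were lower in FL too (limma), also under 2-fold. *Kif26a* (0.74), *Kif7* (0.60), *Kif20b* (0.72) and *Myo10* (0.44) were higher in FL, under 2-fold. Their adjusted p was 0.0022, 0.0154, 0.017 and 0.0206 (limma). For *Myo5a*, *Kifc2*, *Myo9b*, *Kifc3*, *Myo19*, *Kif13a* and *Myo9a* the adjusted p ran from 0.0625 to 0.861 (limma). The fit of RNA-Seq alone was chosen after seeing the data. The share of all genes passing in it is not given, so it does not tell whether motor genes differed more often than other genes.

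RPFs were lower in FL for 9 of the 19 genes (47.4%), against 17.8% of all genes, and higher for none, against 14.9%. The change was negative in 16 of the 19, against 48.6% of all genes. *Dync1h1* had 26818, 26924 and 14109 normalized RPFs in NT and 2715, 3046 and 13288 in FL. FL replicate 3 came close to NT replicate 3, while replicates 1 and 2 of the 2 tissues lay far apart. The change was -2.18 ± 0.47 (adjusted p = 0.00263, limma), 4.53-fold, beside 38893, 47614 and 49611 RNA reads in NT and 31888, 33501 and 29086 in FL.

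*Kif5a* had the largest change in RPFs of the 19 genes, from 4366, 4682 and 2177 normalized RPFs in NT to 75.4, 51.1 and 167 in FL, 40.5-fold (log2 -5.34 ± 0.42, adjusted p = 4.5e-07, limma). *Kif21b* had fewer RPFs in FL too, with 7293, 7807 and 5926 RPFs in NT and 842, 893 and 1690 in FL (-2.68, adjusted p = 2.5e-06, limma). *Kif13a*, with 1210, 1183 and 793 RPFs in NT and 335, 307 and 741 in FL, had a change of -1.30 in RPFs (adjusted p = 0.0041, limma) beside -0.11 in mRNA, which was 2168, 2828 and 2277 reads in NT and 2301, 2238 and 2142 in FL.

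Among the myosins, *Myo5a* went from 5768, 5737 and 1484 normalized RPFs in NT to 362, 347 and 1096 in FL (-2.82, adjusted p = 0.00116, limma). *Myo9a* went from 1709, 1747 and 448 to 117, 139 and 626 (-2.34, adjusted p = 0.0106, limma), so that the tissues overlapped through replicate 3. *Myo18a*, a myosin of the Golgi, went from 4539, 5051 and 2518 to 598, 784 and 1605 (-2.09, adjusted p = 2.7e-04, limma). The mRNA of these 3 genes was not called different in the fit without centring. It was 2709, 7235 and 5194 reads in NT and 3001, 2481 and 2744 in FL for *Myo5a*, and 1375, 4505 and 3466 in NT and 2515, 2460 and 2840 in FL for *Myo9a*, overlapping in both. *Myo18a* mRNA, at 7983, 6788 and 8235 reads in NT and 4057, 3988 and 3613 in FL, did not overlap (-0.98, adjusted p = 0.0509, limma), and it was called lower when changes were centred on their median (-1.0, adjusted p = 0.0458, limma). The call of *Myo10* (-1.38, adjusted p = 0.0464, limma), with 3149, 3375 and 1176 RPFs in NT and 507, 548 and 2552 in FL, rested on the joint fit, and with Ribo-Seq fitted alone the adjusted p was 0.153. *Myo10* was also not called by edgeR or DESeq2, nor without replicate 1 or 2 of either tissue. Its mRNA was 4921, 4389 and 4389 reads in NT and 6623, 6169 and 5738 in FL.

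*Kifc2* had 83.8, 57.7 and 181 normalized RPFs in NT and 8.02, 25.6 and 35.8 in FL (-2.23, adjusted p = 0.00758, limma), the FL values being 5, 12 and 24 reads. Its mRNA, at 402, 430 and 234 reads in FL, overlapped that in NT. Without FL replicate 1 it was no longer called (adjusted p = 0.0521, limma). *Myo9a* lost its call without NT replicate 2, FL replicate 1 or FL replicate 2 (adjusted p = 0.0575, 0.0749 and 0.0662, limma). For *Kif26b*, with 2474, 2659 and 1050 RPFs in NT and 1688, 2089 and 7508 in FL, RPFs did not differ detectably (0.65 ± 0.47, adjusted p = 0.269, limma), and of the FL libraries only replicate 3 exceeded all 3 NT values.

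**Figure D4:**
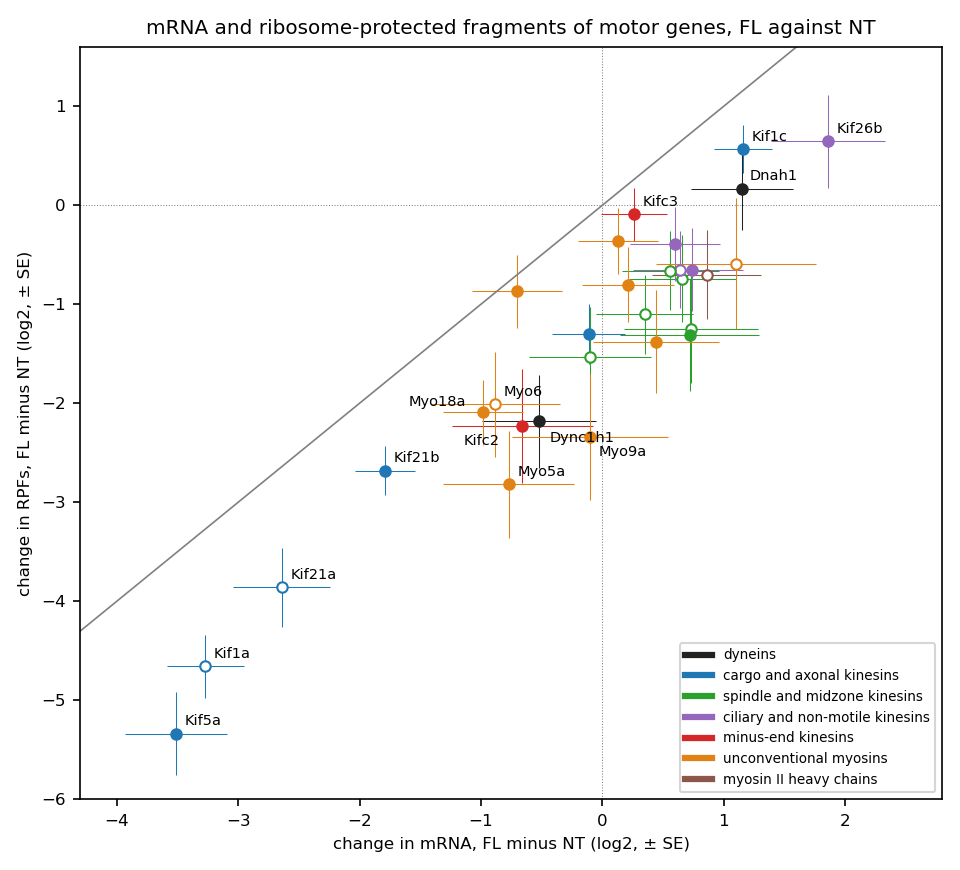
Change in mRNA (x axis) and in RPFs (y axis), FL minus NT on the log2 scale with standard errors, for motor genes coloured by role. Filled points are the 19 mesoderm-list genes and open points are genes chosen by these tissues. The diagonal marks equal changes, all points drawn lie below it, and *Kif5a* lies at the lower left (-3.51 and -5.34).

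**Figure D5:**
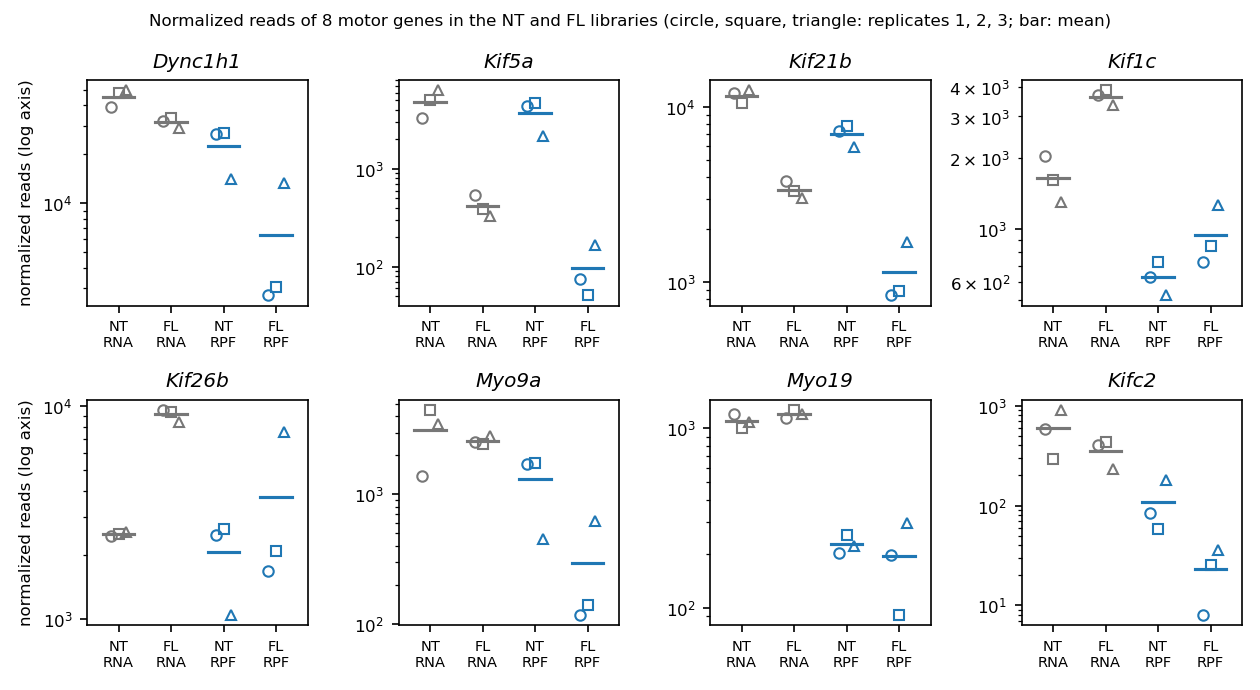
Normalized reads (y axes, logarithmic) of 8 motor genes in NT and FL, RNA in grey and RPFs in blue, with symbols for replicates 1, 2 and 3 and a bar for the mean. For *Dync1h1* the RPFs of replicate 3 are close in NT and FL (14109 and 13288), while for *Kif5a* all FL values lie below all NT values in both library types.

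The change in log2 TE between FL and NT was negative for all 19 mesoderm-list genes, against 49.5% of all 11231 genes, and with a median of -1.18 against 0.01. None was called at an adjusted p under 0.2 and 2-fold, thresholds that 0.276% of all genes passed downward and 0.125% upward. The smallest adjusted p of the 19 was 0.291 by limma, while 10 of the 19 had an unadjusted p under 0.05, as did 16.9% of all genes. edgeR called 0 and DESeq2 called 2 of the 19, *Kif5a* (adjusted p = 0.127, DESeq2) and *Myo5a* (adjusted p = 0.153, DESeq2). The count depended on replicate 3. Without replicate 3 of both tissues, 15 of the 19 were called, without FL replicate 3 alone 15, and without NT replicate 3 alone 12. All genes called lower then numbered 2504, 2167 and 1235.

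Of the 19 genes, the most negative change was that of *Myo9a* (-2.24 ± 0.91 SE) and the least that of *Myo5b*, which recycles endosomes (-0.18 ± 0.52). *Myo5b* had 460, 466 and 683 normalized RNA reads and 342, 275 and 196 RPFs in NT, and 304, 388 and 291 RNA reads and 96.2, 275 and 112 RPFs in FL. Among the cargo kinesins the change ran from -1.83 ± 0.60 for *Kif5a* to -0.59 ± 0.35 for *Kif1c*, with 630, 724 and 526 RPFs in NT and 730, 848 and 1266 in FL. *Kif20b* had -2.03 ± 0.81, with 1210, 1045 and 396 RPFs in NT and 154, 215 and 979 in FL.

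For *Dync1h1* the change was -1.66 ± 0.67 (adjusted p = 0.291, limma) and -2.83 without replicate 3 of both tissues (adjusted p = 5.5e-05, limma). *Kifc2*, *Myo19* and *Kifc3* had -1.57 ± 0.82, -0.49 ± 0.47 and -0.35 ± 0.39. Over the 3002 genes with a symbol and a CDS, the change in log2 TE had a Spearman's correlation of -0.76 with CDS length, and within the 31 motor genes -0.12. The 337 other genes whose CDS was at least as long as the motor genes' median had a median change of -1.58, and 333 of them were negative, beside a median of -1.32 for the 31 motor genes. These genes have a symbol only through the lists, and the tissue list ranks genes by this same change. Of the 31 motor genes, 12 were taken only from that list, so these values are a description. The part of CDS length in the change was not tested.

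The partners of the motors were described from fixed lists, as far as their genes had a symbol. Those from the mesoderm list were chosen for an extreme TE in mesoderm, so shares of all genes are not a matched comparison. The part of CDS length in the TE of the partners was not tested. Of the cargo adaptors and dynein regulators, 6 of 14 came from the mesoderm list, and in FL 4 of these 6 were TE-low, against 13.4% of all genes, and none TE-high, against 6.25%, with a median of -2.17. In NT, 1 of the 6 was TE-low, against 4.13%, *Trak2* (-1.8, adjusted p = 0.0265, limma). Those TE-low in FL included *Trak1* (-2.43, adjusted p = 9.5e-06, limma) and *Trak2* (-3.19, adjusted p = 4.9e-04, limma), which couple mitochondria to kinesin, and *Mapk8ip3* (-2.67, adjusted p = 4.5e-04, limma), a kinesin adaptor. *Trak1* was also the only one of the 6 with a called change in TE (-1.29, adjusted p = 0.152, limma). RPFs of all 6 were lower in FL, against 17.8% of all genes. Their mRNA had a median change of -0.91 and was called lower for 2 of the 6, against 9.49% of all genes. These were *Trak1* (-1.18) and *Mapk8ip1* (-2.0), the latter with a TE change of 0.06.

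Tubulins form the track of kinesins and dyneins. Of the 5 microtubule genes from the mesoderm list, 4 were TE-high in FL, a call that 6.25% of all genes met, and the 4 are tubulins, *Tuba1c* (2.6), *Tubb2a* (2.05), *Tubb2b* (1.93) and *Tubb4b* (1.66). In NT none of the 5 was TE-high, against 0.436% of all genes. *Map1a*, a microtubule-binding protein of neurons, had -1.57 in FL. mRNA of 4 of the 5 was lower in FL than in NT, against 9.49% of all genes, with a change of -4.32 for *Tubb2b* (adjusted p = 7.8e-08, limma) and of 0.01 for *Tubb4b*, which was not called. Near-identical tubulin copies can lose reads that map to several genes, so these values are uncertain.

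Of the 16 listed actomyosin partners, 5 came from the mesoderm list. In FL, 3 of these 5 were TE-high, against 6.25% of all genes, and 2 TE-low, against 13.4%. The TE-high genes were *Actb* (2.66), *Myl12b* (2.73) and *Myl12a* (2.31), which encode actin and regulatory light chains of myosin II. The large actin crosslinker *Flna* (-1.80) was TE-low. mRNA of *Flna* was higher in FL than in NT, by 1.18 on the log2 scale (adjusted p = 5.0e-04, limma). *Actb* (1.97) and *Myl12b* (1.84) were also TE-high in NT, 2 of the 5 against 0.436% of all genes.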

How the data were processed

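The authors trimmed reads with cutadapt, discarded structural RNA, mapped with Bowtie2 to the canonical UCSC isoforms (mm10) and kept unique hits. They counted CDS positions after codon 15 and before the last 5, and scaled each library by DESeq. The deposited signal values are therefore normalized reads, in 2 tables normalized separately (mesoderm, 12064 genes; NT and FL, 11231 genes). Tests were run within 1 table. Symbols came from the study's gene lists, whose ranks chose the members; positions, CDS lengths and sequences from GENCODE M21 (GRCm38), matching all 34 members, whose isoforms can differ from the authors'.

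The library-type coefficient of a limma 3.58.1 fit with a variance trend (R 4.3.3), made on normalized reads plus 1 in log2, gave TE; adding 1 understates changes of low genes. The mesoderm model held a replicate block, which the study also used: same-numbered libraries came from cells split after the sort (correlation of deviations 0.74, 0.58 and 0.57). Both tissues were taken from each embryo and neural tube cells were also divided between the library types, but no source ties a number to an embryo or a cell pool. NT and FL numbers did not pair by the check used, which asked for every correlation to exceed 0.1: RPF deviations correlated between tissues at -0.29, -0.50 and -0.58, RNA deviations at -0.02, -0.22 and -0.24, and RPF with RNA at -0.28, 0.35 and 0.05 within NT and 0.05, 0.12 and 0.09 within FL. Their 12 libraries were therefore fitted without a block, and the fit with one is an alternative. Changes are FL minus NT. TE calls needed an adjusted p under 0.05 and 3-fold, changes in mRNA and RPFs 0.05 and 2-fold, and changes in TE 0.2 and 2-fold. Changes were not centred; their medians lay within 0.038 of 0.

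In all 18 libraries 100.0% of values were whole multiples of the worth of 1 read (tolerance 0.01), and these reads were tested with edgeR 4.0.16 and DESeq2 1.42.0 as alternatives. Depth on the tables' genes was 11000015 to 50136443 reads. On simulated reads, limma called 200 of 200 genes changed 8-fold in mesoderm TE, among 12064 genes, and 164 of 200 changed 4-fold in TE between FL and NT, among 11231 genes, with 39 unchanged genes called. The simulated libraries varied independently, without the departure of replicate 3 shared by many genes in NT and FL, and only well-covered genes were changed. The recovery is therefore not the power of the real test of TE changes. Replicates are biological in the study's words, and p-values measure their spread. No pair of replicates was a duplicate (chi-square per degree of freedom at least 7.83).

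Members and gene lists were chosen with earlier results of these data known. Per-library values are given for *Dync1h1*, for the extremes of mesoderm TE and of TE change in each role group with 3 or more members, and for genes called in a measure their selection did not use. Alternatives were pseudocounts of 0.5 and 8, a mean of at least 100 normalized reads, edgeR, DESeq2, the block, each replicate left out, replicate 3 of NT and FL left out, centred changes and, chosen after seeing the data, each library type fitted alone. The authors' own fold changes and p-values were not used. Values of some genes are not reported here and are left out of the plots, while counts and medians include them. Python 3.11.15, pandas 2.3.3, numpy 2.4.6, scipy 1.17.1 and matplotlib 3.10.9 were used otherwise.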

Additional observations from a re-analysis of the deposited data

How the results depend on the processing

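Counts of motor genes called in NT, FL, mRNA and RPFs stayed within 1.5 times under pseudocounts of 0.5 and 8, the filter at 100 normalized reads, edgeR, DESeq2, centring and the block. In mesoderm the count of the 11 tissue-list genes called TE-low stayed at 0, which follows from the split and is no measure of stability. Leaving out 1 replicate gave 2 to 3 of 19 genes TE-low in NT, 13 to 17 in FL, 6 to 12 with lower RPFs, 2 with lower and 2 to 3 with higher mRNA. Over all genes the same settings gave 331 to 488 TE-low in NT, 1055 to 2028 in FL and 1464 to 2715 with lower RPFs. Lower mRNA was called for 960 to 1088 of all genes and higher mRNA for 695 to 895. The change in TE depended on replicate 3. Motor genes called lower numbered 0 to 15 with 1 replicate left out (12 without NT replicate 3, 15 without FL replicate 3), 15 without replicate 3 of both tissues, and 2 by DESeq2. All genes called lower and higher numbered 31 and 14, against 5 and 1 with the replicate block, 286 and 570 by DESeq2, 0 to 2167 and 0 to 1805 with 1 replicate left out, and 2504 and 2329 without replicate 3 of both; the cause was not tested. With 1 replicate left out, TE-high genes numbered 72 to 271 in mesoderm (141 with all), 29 to 73 in NT (49) and 379 to 1393 in FL (702). Leaving out replicate 3 of both tissues gave 1406 in FL and 2711 genes with higher RPFs in FL, against 1675.

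Signs turned as follows, with ranges over single replicates left out. TE in NT ran from -0.68 to 0.02 for *Kif26b*, -0.86 to 0.13 for *Kif5a* and -1.11 to 0.35 for *Myo5a*, the upper values without NT replicate 3 and also without replicate 3 of both tissues. The TE change ran from -0.87 to 0.01 for *Myo19* and from -0.58 to 0.11 for *Myo5b* (0.06 without FL replicate 1). The mRNA change reached 0.00 for *Kif13a* without NT replicate 2 and ran from -0.60 to 0.25 for *Myo9a* (0.06 without NT replicate 3). The RPF change ran from -0.30 to 0.53 for *Dnah1* (-0.19 without NT replicate 3, -0.67 without replicate 3 of both), from -0.02 to 1.06 for *Kif26b* (-0.45 without replicate 3 of both), from -0.94 to 0.01 for *Kif7*, from -0.38 to 0.05 for *Kifc3* (0.02 without NT replicate 3) and from -0.74 to 0.11 for *Myo19*. The replicate block in NT and FL left 3 and 16 genes TE-low and cost *Myo10* its RPF call (adjusted p = 0.0763, limma). Depth limits *Kifc2*, with 5 to 24 reads in FL Ribo-Seq.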
